A study of Mus musculus with 6 samples.

Results

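A set of 9 genes of pericellular proteolysis, the breakdown of matrix and surface proteins at the cell membrane, were followed in cultured mouse lung alveolar cells. They are the plasminogen activator genes Plau and Plat, the activator receptor gene Plaur, the serine protease inhibitor gene Serpine2, the matrix metalloproteinase genes Mmp2 and Mmp14, and the tissue inhibitor of metalloproteinases genes Timp1, Timp2 and Timp3. They were taken by gene symbol, and all 9 had a row among the 23224 genes of the deposited table. Of these, 8 passed the filter on low counts and were tested, and Mmp2 did not pass.

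The data are polyA RNA-seq profiles of 6 libraries from alveolar organoid cells of the Sftpc-eGFP genotype, which carries a green fluorescent reporter of the surfactant protein C gene. The 3 conditions, each held for 7 days, were 2D FBS (flat culture in a serum medium, Ad-DMEM F/12 to which 10% FBS was added), 2D FNHCS (flat culture in the medium called FNHCS) and 3D FNHCS (drops of matrigel, a basement membrane gel, in FNHCS, the control). The cell lines SN3595 and SN3593 each gave 1 library per condition, so n = 2 in every group, and all cells had been kept in matrigel and FNHCS before the treatment. Titles call the 2D FBS libraries type I, the 2D FNHCS libraries AT2 and AT1, and the 3D libraries type II, and the labels do not state a sort on eGFP for these libraries.

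The plasminogen system is a surface cascade: urokinase (Plau) and tissue plasminogen activator (Plat) cleave plasminogen to plasmin, the urokinase receptor (Plaur) holds urokinase at the membrane, and serpins stop both activators. Plasmin degrades fibrin and several matrix proteins and can activate some metalloproteinase precursors. MMP14 is anchored in the membrane, cleaves collagen and activates the MMP2 precursor, a step in which TIMP2 acts as the bridge at low amounts and as the inhibitor at high amounts. In the lung these proteins take part in clearing fibrin from airspaces and in remodelling the matrix after alveolar injury.

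Promoter letters are shown for the 4 genes with a called change between conditions, Plaur, Mmp14, Timp2 and Timp3. RefSeq promoters of the build GRCm38.p6, the 250 bases before the transcript start, could be matched for 6 of the 9 genes. The Plaur window is chr7:24462233-24462482 on the plus strand, that of Mmp14 is chr14:54431348-54431597 on the plus strand, that of Timp2 is chr11:118355412-118355661 on the minus strand and that of Timp3 is chr10:86300162-86300411 on the plus strand. Each is written 5′ to 3′ along the gene, and capitals mark matches, on either strand, to any of 10 motifs.
Plaur: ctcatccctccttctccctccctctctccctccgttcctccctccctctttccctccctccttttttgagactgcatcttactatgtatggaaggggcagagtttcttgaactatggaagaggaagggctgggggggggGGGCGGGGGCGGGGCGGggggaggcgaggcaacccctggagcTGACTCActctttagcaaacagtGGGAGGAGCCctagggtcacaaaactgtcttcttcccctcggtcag
Mmp14: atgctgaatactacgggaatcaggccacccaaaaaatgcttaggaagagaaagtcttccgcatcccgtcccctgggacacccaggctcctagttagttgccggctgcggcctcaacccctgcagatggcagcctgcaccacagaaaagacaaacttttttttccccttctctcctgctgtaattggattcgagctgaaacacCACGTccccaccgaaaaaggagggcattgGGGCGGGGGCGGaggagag
Timp2: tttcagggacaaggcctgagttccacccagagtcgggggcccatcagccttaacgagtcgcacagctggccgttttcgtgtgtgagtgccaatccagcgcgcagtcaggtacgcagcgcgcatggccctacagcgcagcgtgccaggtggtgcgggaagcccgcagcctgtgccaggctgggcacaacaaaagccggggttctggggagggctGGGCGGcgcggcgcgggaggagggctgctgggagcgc
Timp3: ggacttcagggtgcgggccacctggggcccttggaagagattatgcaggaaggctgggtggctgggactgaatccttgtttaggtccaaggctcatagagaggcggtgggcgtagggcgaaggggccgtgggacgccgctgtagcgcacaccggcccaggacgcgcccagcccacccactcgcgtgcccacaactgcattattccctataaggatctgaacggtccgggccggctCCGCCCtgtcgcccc

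The motifs searched on both strands were AP-1 (TGANTCA), CRE (TGACGTCA), TEAD (GGAATG), NF-kB (GGGA, then any 4 bases, then CC), the GC box (GGGCGG), the TATA box motif (TATAAA), HIF (ACGTG), SMAD (CAGACA), NKX2-1 (CAAGTG) and ETS (GGAAGT). The Plaur window held an AP-1 match that starts 69 bases before the transcript start, an NF-kB match at 46 bases and GC boxes at 111, 105 and 100 bases, of which neighbours 105 and 100 share a base. AP-1 matches occur in 6.75% of all 32851 promoters, NF-kB matches in 17.6% and GC boxes in 32.7%. The Mmp14 window held GC boxes at 19 and 13 bases and a HIF match on the minus strand at 48 bases, and HIF matches occur in 16.6% of promoters. The Timp2 window held a GC box at 37 bases, and the Timp3 window held a minus-strand GC box at 15 bases. G and C made up 59.6% of the Plaur, 55.2% of the Mmp14, 68% of the Timp2 and 65.6% of the Timp3 window, against a mean of 53.2% over all promoters. A match is a description of letters and not of binding.

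Libraries held 33634368 to 43334665 expected counts. Levels are CPM, counts set relative to the library total and scaled by the trimmed mean of M-values (TMM), and a call is an adjusted p below 0.05 in edgeR's quasi-likelihood test over 14416 genes. Cell type markers moved across the conditions. The 10 AT2 markers summed to 901 to 1319 CPM in 2D FBS, 46445 to 55213 in 2D FNHCS and 51596 to 70407 in 3D FNHCS. Sftpc made up most of this sum in both FNHCS conditions. In 2D FNHCS against 3D FNHCS, 6 of the 10 were called lower and 0 higher, beside 9.77% of all genes lower. Their median log2 fold change was -2.31. The 10 AT1 markers summed to 24009 to 24054 CPM in 2D FBS, 5204 to 12469 in 2D FNHCS and 2431 to 2623 in 3D FNHCS. Of 7 mesothelial markers 3 passed the filter, and their list summed to 3790.4 to 5204 CPM in 2D FBS, 761 to 1237 in 2D FNHCS and 485 to 489 in 3D FNHCS, nearly all from Krt19 and Msln, with Calb2 at 0 in all 6 libraries and Upk3b at 0 in both FNHCS conditions. Of 10 fibroblast markers 2 passed, and the list summed to at most 2.53 CPM in any library. Of 9 leukocyte markers 4 passed, with sums of 6.12 to 10.4 CPM in 2D FBS, 4.35 to 7.11 in 2D FNHCS and 20.1 to 21.3 in 3D FNHCS. Nearly all of the 3D FNHCS sum was Cd68, at 19.7 and 20.5 CPM (SN3595 and SN3593). In 2D FBS against 3D FNHCS, Cd68 was called lower and Csf1r higher, and the other tested leukocyte markers were not called. Csf1r stood at 8.05 and 2.27 CPM in 2D FBS and at 0 and 0.0864 CPM in 3D FNHCS. The endothelial list reached at most 1.87 CPM. The part of these marker shifts in the results below was not tested. In these bulk libraries, fewer cells of a type and less RNA per cell cannot be told apart.

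Across the conditions, the receptor gene Plaur was far higher in 2D FBS, Timp2 was higher in both flat cultures, Timp3 was higher in 2D FBS, and Mmp14 was higher in both flat cultures with wide spread between lines. In 2D FNHCS against 3D FNHCS, 2 of the 8 tested genes were called, both higher (Timp2 and Mmp14), beside 18.4% of all genes tested (8.63% higher, 9.77% lower). The serum medium against FNHCS in flat culture called 2, both higher (Plaur and Timp3), against 10.6% of all genes (5.85% higher and 4.77% lower). Between 2D FBS and 3D FNHCS 4 were called, all higher in 2D FBS (Plaur, Timp2, Timp3 and Mmp14), against 40.5% of all genes (19.9% higher and 20.5% lower). With library size scaling alone the split over all genes was 1885 higher and 1137 lower in 2D FNHCS against 3D FNHCS, where TMM gave 1244 and 1408, and 625 and 1474 in 2D FBS against 2D FNHCS, where TMM gave 843 and 688. Upper-quartile factors gave 701 higher and 915 lower in 2D FBS against 2D FNHCS. No call of the 8 genes turned direction with any scaling. Libraries of the conditions did not overlap for 3, 5 and 6 of the 8 genes in these comparisons, as for 63.7%, 59.7% and 75.1% of all genes. With TMM, the default filter, all 6 libraries and no line term, edgeR called none of the 8 lower. With library size scaling alone, and also without a filter, it called Serpine2 lower in 2D FBS against 2D FNHCS. With the line as a replicate block, edgeR called 0, 2 and 2 lower in the order of the comparisons above (Plat and Serpine2 in both comparisons of 2D FBS), and the higher calls stayed at 2, 2 and 4. At an unadjusted p below 0.05, 0, 2 and 2 were lower, DESeq2 called 0, 1 and 2 lower, and limma-voom called 0 in each. The median log2 fold change of the 8 genes was 0.25, 0.34 and 1.7, against 0.03, -0.06 and -0.03 over all genes. The p-values measure the spread between the 2 lines and their cultures and may hold technical variation, since only the line names tell them apart and no label names separate animals.

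**Figure D1:**
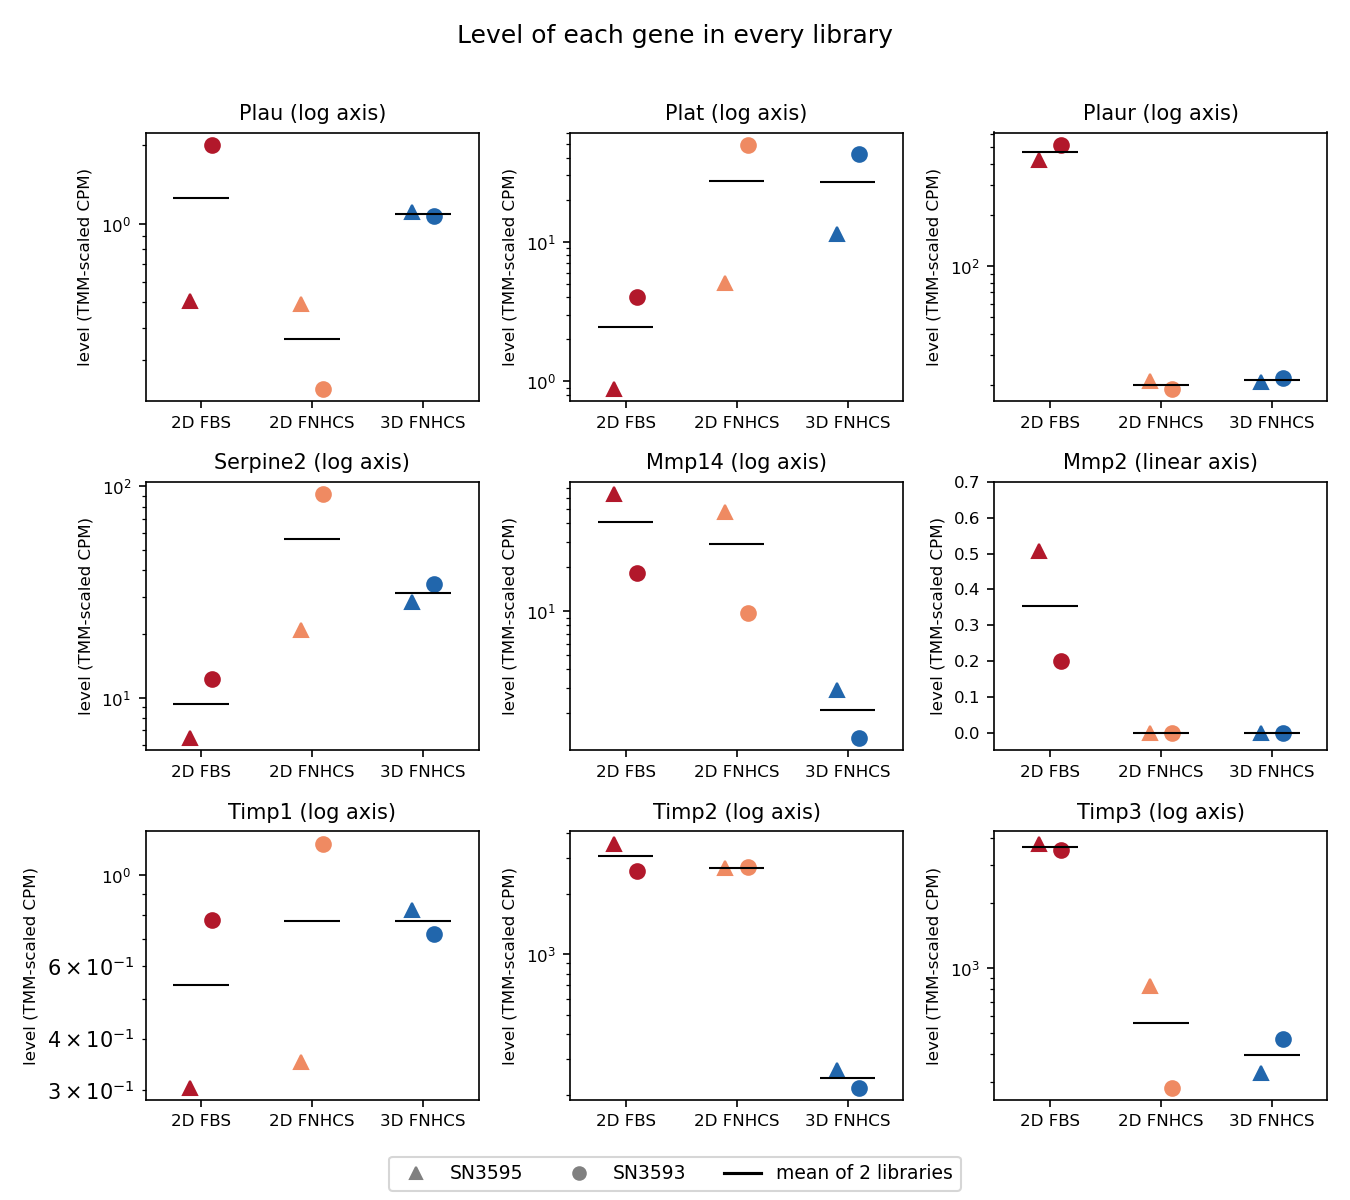
Level of each of the 9 genes in every library, in TMM-scaled CPM on a log axis (linear for Mmp2), by culture condition; triangles are SN3595, circles are SN3593 and lines are means of 2 libraries. Both 2D FBS libraries lie at 423 and 518 CPM for Plaur, above the 4 others at 19 to 22 CPM, and both 3D FNHCS libraries lie below the 4 flat cultures for Timp2 and Mmp14.

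Plaur encodes the receptor that anchors urokinase to the membrane by a lipid tail. It stood at 423 CPM in SN3595 and 518 CPM in SN3593 in 2D FBS, at 21.1 and 19 CPM in 2D FNHCS, and at 20.9 and 22 CPM in 3D FNHCS. The 2D FBS libraries were far above the other 4, which overlapped between 2D FNHCS and 3D FNHCS. The mean was 470.3 ± 67.3 CPM in 2D FBS, 20 ± 1.44 CPM in 2D FNHCS and 21.5 ± 0.737 CPM in 3D FNHCS (SD, n = 2 each). The log2 fold change was 4.55 ± 0.214 (SE) in 2D FBS against 2D FNHCS, or 23.4-fold (adjusted p = 0.003, edgeR). It was 4.45 ± 0.213 in 2D FBS against 3D FNHCS, or 21.9-fold (adjusted p = 0.000695, edgeR). Between 2D FNHCS and 3D FNHCS the log2 fold change was -0.10 ± 0.186 (adjusted p = 0.736, edgeR). Both calls held under every alternative that was run, including each library left out. In 2D FBS, FNHCS was taken away as serum was added, so the effects of the 2 steps cannot be told apart.

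Plau and Plat encode the activators themselves. Plau had 20 and 70 counts in 2D FBS, 21 and 9 in 2D FNHCS, with 39 and 37 in 3D FNHCS (SN3595 and SN3593), or at most 2.01 CPM in any library. The 2D FBS libraries lay on both sides of those in 3D FNHCS, and no comparison called it (adjusted p = 0.203 for 2D FNHCS against 3D FNHCS, 0.191 for 2D FBS against 2D FNHCS and 0.845 for 2D FBS against 3D FNHCS, edgeR). Plat stood at 0.886 and 4.02 CPM in 2D FBS, 5.07 and 49.5 CPM in 2D FNHCS, and 11.3 and 42.4 CPM in 3D FNHCS (SN3595 and SN3593). The 2D FBS libraries were below the other 4, and the lines differed widely within every condition. The log2 fold change of Plat was -3.48 ± 1.29 in 2D FBS against 2D FNHCS (adjusted p = 0.135, edgeR) and -3.46 ± 1.29 in 2D FBS against 3D FNHCS (adjusted p = 0.075, edgeR). With the line as a replicate block, which compares conditions within a line, Plat was called lower in both (adjusted p = 0.0112 and 0.00231, edgeR). DESeq2 called Plat lower in 2D FBS against 3D FNHCS (adjusted p = 0.0434) and not against 2D FNHCS (adjusted p = 0.0746), and limma-voom called neither (adjusted p = 0.157 and 0.306). Much of the size against 2D FNHCS came with 1 library: without 2D FNHCS of SN3593 the log2 fold change of Plat was -1.06 (adjusted p = 0.594, edgeR), and over all libraries left out it lay between -4.90 and -1.06. Against 3D FNHCS it lay between -4.90 and -2.23, the smallest without 3D FNHCS of SN3593 (adjusted p = 0.273, edgeR), and it was called without either 2D FNHCS library (adjusted p = 0.0283 to 0.03, edgeR).

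Serpine2 encodes protease nexin-1, a serpin that blocks urokinase, tissue plasminogen activator and thrombin. Its level was 6.43 and 12.3 CPM in 2D FBS, 20.8 and 91.7 CPM in 2D FNHCS, and 28.2 and 34.6 CPM in 3D FNHCS (SN3595 and SN3593). The 2D FBS libraries were below the other 4, and 2D FNHCS spanned the values of 3D FNHCS. The log2 fold change was -2.59 ± 0.701 in 2D FBS against 2D FNHCS (adjusted p = 0.0679, edgeR) and -1.75 ± 0.683 in 2D FBS against 3D FNHCS (adjusted p = 0.086, edgeR). With the line as a replicate block both were called lower (adjusted p = 0.0268 and 0.0201, edgeR). DESeq2 also called both (adjusted p = 0.00111 and 0.0238), while limma-voom called neither (adjusted p = 0.122 for each). Library size scaling alone and no filter each called Serpine2 lower against 2D FNHCS (adjusted p = 0.0496 and 0.0421, edgeR). Neither called it against 3D FNHCS (adjusted p = 0.08 and 0.0609, edgeR). Without 2D FNHCS of SN3593 the log2 fold change of Serpine2 in 2D FBS against 2D FNHCS was -1.16 (adjusted p = 0.176, edgeR), and without 2D FNHCS of SN3595 it was -3.26 (adjusted p = 0.0163, edgeR). Against 3D FNHCS it lay between -2.28 and -1.37 with a library left out, and it was called without either 2D FNHCS library (adjusted p = 0.0111 to 0.0122, edgeR). Between 2D FNHCS and 3D FNHCS the log2 fold change was 0.84 ± 0.662 (adjusted p = 0.403, edgeR). Within each library, counts of Plaur over counts of Plat came to 477 and 129 in 2D FBS, 4.16 and 0.384 in 2D FNHCS, with 1.85 and 0.519 in 3D FNHCS (SN3595 and SN3593), so both 2D FBS libraries were above the other 4.

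**Figure D2:**
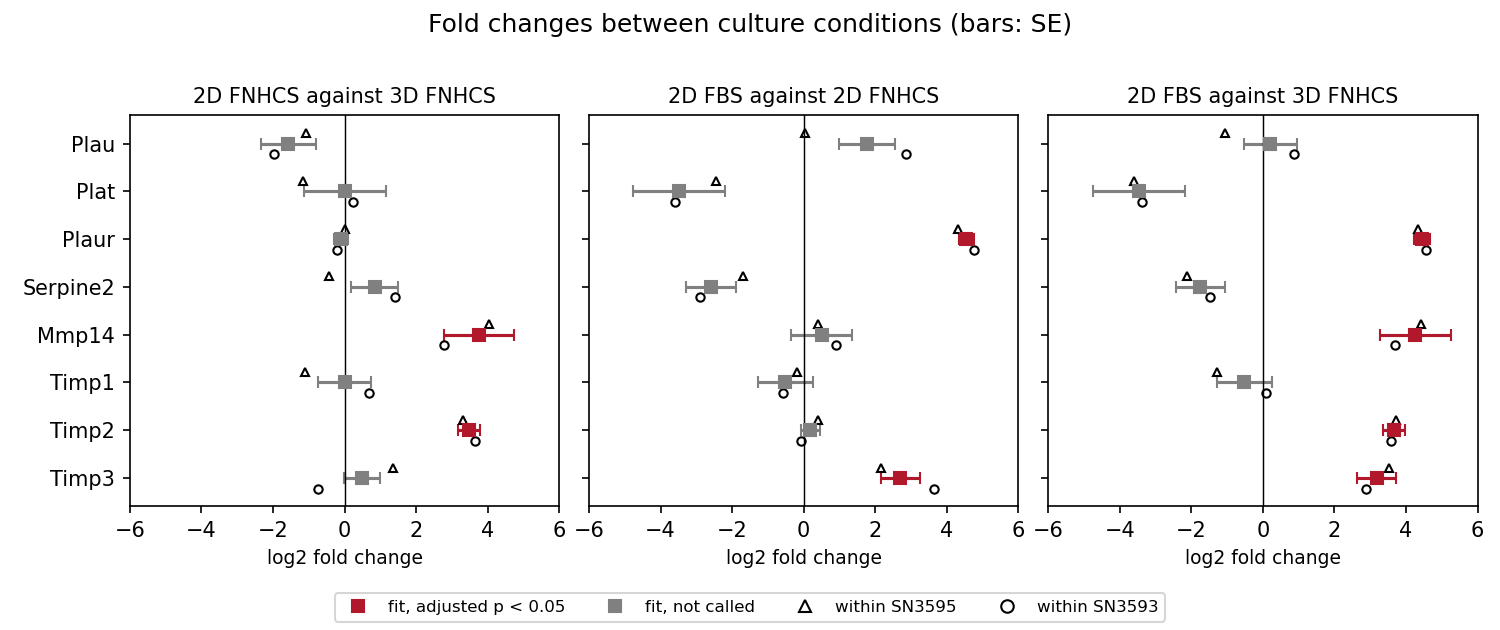
Log2 fold change of the 8 tested genes in the 3 comparisons of conditions; squares are the fit over both lines with its SE, red where the adjusted p is below 0.05 and grey otherwise, triangles are SN3595 alone and circles are SN3593 alone. Plaur lies at 4.55 and 4.45 in the comparisons with 2D FBS and at -0.10 in 2D FNHCS against 3D FNHCS, and Timp2 lies at 3.48, 0.19 and 3.66 from left to right.

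Mmp14 encodes membrane type 1 metalloproteinase. It stood at 63.3 and 18.2 CPM in 2D FBS, 48.1 and 9.71 CPM in 2D FNHCS, and 2.89 and 1.35 CPM in 3D FNHCS (SN3595 and SN3593). All 4 flat cultures were above both matrigel cultures, the flat conditions overlapped each other, and SN3595 was the higher line in each condition. Means were 40.8 ± 31.8 CPM in 2D FBS, 28.9 ± 27.1 CPM in 2D FNHCS and 2.12 ± 1.09 CPM in 3D FNHCS (SD, n = 2 each). The log2 fold change was 3.76 ± 0.978 in 2D FNHCS against 3D FNHCS, or 13.6-fold (adjusted p = 0.0459, edgeR), and 4.26 ± 0.997 in 2D FBS against 3D FNHCS, or 19.2-fold (adjusted p = 0.0177, edgeR). The flat conditions differed by 0.50 ± 0.855 (adjusted p = 0.725, edgeR).

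The calls of Mmp14 were lost without single libraries, while its log2 fold change stayed above 2 in each case. For 2D FNHCS against 3D FNHCS the adjusted p was 0.203 without 3D FNHCS of SN3593 (log2 fold change 3.30), 0.128 without 3D FNHCS of SN3595 (4.42), 0.141 without 2D FNHCS of SN3595 (2.15), 0.0515 without 2D FBS of SN3593 (3.76) and 0.0538 without 2D FBS of SN3595 (3.74, edgeR). For 2D FBS against 3D FNHCS it was 0.0966 without 3D FNHCS of SN3593 (log2 fold change 3.80), 0.0594 without 3D FNHCS of SN3595 (4.92) and 0.0716 without 2D FBS of SN3595 (3.08, edgeR). Limma-voom called neither (adjusted p = 0.145 and 0.0632), while DESeq2 (adjusted p = 4.74e-05 and 1.02e-06) and the replicate block (adjusted p = 0.00465 and 0.00122, edgeR) called both. Msln, one of the mesothelial markers, was also above in SN3595 in each condition, at 2142 and 551 CPM in 2D FBS, 307 and 6.91 CPM in 2D FNHCS and 12.2 and 4.87 CPM in 3D FNHCS (SN3595 and SN3593). The other mesothelial markers tested did not follow it. Krt19 was at 0.06 ± 0.193 and Gpm6a at -3.14 ± 1.02 in SN3595 against SN3593 (log2 fold change). Over the 10 AT1 markers the median between lines was 0.72, with a range from -1.19 for Igfbp2 to 2.93 for Pdpn, and 0 were called. The part of these markers in the Mmp14 values was not tested.

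Mmp2 encodes gelatinase A, the main precursor that MMP14 activates. It had 20 and 7 counts in 2D FBS (SN3595 and SN3593) and 0 counts in each of the 4 FNHCS libraries. The 2D FBS libraries stood at 0.506 and 0.201 CPM (SN3595 and SN3593), with a mean of 0.354 CPM. With a floor of 3 counts per library in place of 0, that mean was 4.78-fold the mean floor in 2D FNHCS (0.074 CPM). It was 4.13-fold the mean floor in 3D FNHCS (0.0857 CPM). Mmp2 did not pass the filter, and without a filter its adjusted p was 0.0709 in 2D FBS against 2D FNHCS and 0.035 in 2D FBS against 3D FNHCS (edgeR). Floors cover the counting error of the 0 counts only, and not that of the 20 and 7 counts.

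Timp2 encodes the inhibitor that both blocks MMP14 and links it to the MMP2 precursor. It stood at 3537 and 2593 CPM in 2D FBS, 2667 and 2714 CPM in 2D FNHCS, and 267 and 217 CPM in 3D FNHCS (SN3595 and SN3593). The 4 flat cultures were above both matrigel cultures and overlapped each other. Means were 3065 ± 667 CPM in 2D FBS, 2691 ± 32.8 CPM in 2D FNHCS and 242 ± 35.3 CPM in 3D FNHCS (SD, n = 2 each). The log2 fold change was 3.48 ± 0.298 in 2D FNHCS against 3D FNHCS, or 11.1-fold (adjusted p = 0.00419, edgeR), and 3.66 ± 0.301 in 2D FBS against 3D FNHCS, or 12.7-fold (adjusted p = 0.00107, edgeR). Between the flat conditions it was 0.19 ± 0.271 (adjusted p = 0.669, edgeR). Both calls held under every alternative that was run. In the GENCODE M21 annotation Timp2 overlaps Cep295nl on the same strand, which shares none of the exon bases of Timp2 and has no row in the table used.

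Timp3 encodes an inhibitor that binds to the matrix and also blocks several ADAM and ADAMTS proteases. It stood at 3746 and 3496 CPM in 2D FBS, 831 and 281 CPM in 2D FNHCS, and 327 and 470.1 CPM in 3D FNHCS (SN3595 and SN3593). The 2D FBS libraries were above the other 4, and the FNHCS conditions overlapped. Means were 3621 ± 177 CPM in 2D FBS, 556 ± 389 CPM in 2D FNHCS and 399 ± 101 CPM in 3D FNHCS (SD, n = 2 each). The log2 fold change was 2.70 ± 0.54 in 2D FBS against 2D FNHCS, or 6.51-fold (adjusted p = 0.0329, edgeR), and 3.18 ± 0.551 in 2D FBS against 3D FNHCS, or 9.09-fold (adjusted p = 0.00659, edgeR). Between 2D FNHCS and 3D FNHCS it was 0.48 ± 0.508 (adjusted p = 0.53, edgeR), with 1.35 in SN3595 and -0.74 in SN3593. The call against 2D FNHCS was not made without 3D FNHCS of SN3593 (adjusted p = 0.0546), 3D FNHCS of SN3595 (0.0535), 2D FNHCS of SN3593 (0.0504), 2D FBS of SN3593 (0.122) or 2D FBS of SN3595 (0.106), all by edgeR. Timp3 overlaps Syn3 on the opposite strand, with 1733 of the 8144 exon bases of Timp3 in exons of Syn3 (GENCODE M21), and Syn3 had 42 to 181 counts per library. The labels do not state whether counting used strand, and without strand reads in the shared bases cannot be told apart.

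Timp1, the secreted inhibitor that acts weakly on MMP14, had 12 and 27.01 expected counts in 2D FBS, 15 and 46 in 2D FNHCS, with 29 and 25 in 3D FNHCS (SN3595 and SN3593). The conditions overlapped, and no comparison called it (adjusted p = 0.997 for 2D FNHCS against 3D FNHCS, 0.678 for 2D FBS against 2D FNHCS and 0.622 for 2D FBS against 3D FNHCS, edgeR). In the GENCODE M21 annotation Timp1 lies across Syn1 on the opposite strand, which had 2 to 16 counts per library, and 0 of the 888 exon bases of Timp1 lie in exons of Syn1.

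The balance of Timp2 and Timp3 counts within a library, in which gene length cancels between libraries, differed by condition. Counts of Timp2 over counts of Timp3 came to 0.944 and 0.742 in 2D FBS, 3.21 and 9.65 in 2D FNHCS, with 0.815 and 0.461 in 3D FNHCS (SN3595 and SN3593). Both 2D FNHCS libraries were above the other 4, and the ranges of 2D FBS and 3D FNHCS overlapped. Summed over the 3 TIMP genes, the level was 7282 and 6089 CPM in 2D FBS, 3499 and 2996 CPM in 2D FNHCS, and 594 and 687 CPM in 3D FNHCS (SN3595 and SN3593). These genes took 0.664% and 0.557% of all counts in 2D FBS, 0.372% and 0.344% in 2D FNHCS, with 0.058% and 0.0691% for 3D FNHCS. The conditions did not overlap in the sum, with 2D FBS highest and 3D FNHCS lowest in both lines.

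**Figure D3:**
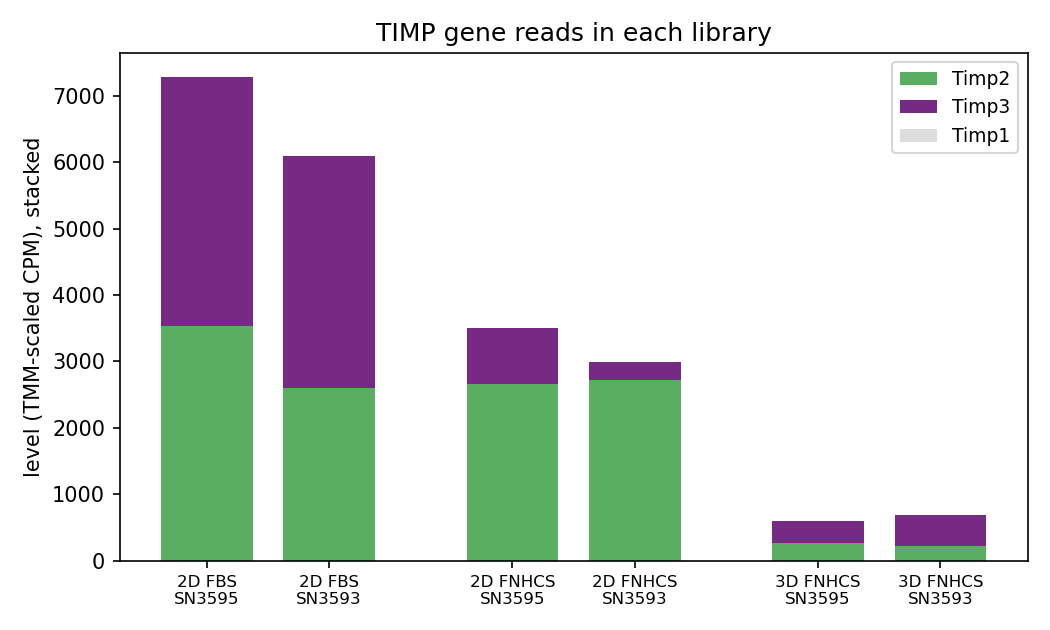
Level of Timp2, Timp3 and Timp1 in each library, stacked, in TMM-scaled CPM. The sum reaches 7282 and 6089 CPM in 2D FBS, 3499 and 2996 CPM in 2D FNHCS and 594 and 687 CPM in 3D FNHCS, Timp2 makes up most of it in 2D FNHCS, and Timp1 is too low to be seen.

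Levels can be compared between genes only per transcript length, here the CPM per kilobase of the longest protein-coding transcript in GENCODE M21. In 2D FBS the order of the means was Timp2 at 826, Timp3 at 767, Plaur at 312, Mmp14 at 12.6, Serpine2 at 4.23, Plat at 0.97, Timp1 at 0.611, Plau at 0.538 and Mmp2 at 0.115 CPM per kilobase. Timp2 and Timp3 overlapped there between libraries, as did Plat, Timp1 and Plau. In 2D FNHCS the order was Timp2 at 726, Timp3 at 118, Serpine2 at 25.5, Plaur at 13.3, Plat at 10.8, Mmp14 at 8.9, Timp1 at 0.874, Plau at 0.155 and Mmp2 at 0 CPM per kilobase. Serpine2, Plaur, Plat and Mmp14 overlapped in that condition. In 3D FNHCS the order was Timp3 at 84.4, Timp2 at 65.2, Plaur at 14.2, Serpine2 at 14.2, Plat at 10.6, Timp1 at 0.873, Mmp14 at 0.656, Plau at 0.464 and Mmp2 at 0 CPM per kilobase. Overlapping neighbours there were Timp3 with Timp2, the group of Plaur, Serpine2 and Plat, and Mmp14 with both Timp1 and Plau. Dividing by the median transcript length in place of the longest swapped Timp2 with Timp3 in 2D FBS, Plat with Mmp14 in 2D FNHCS and Plaur with Serpine2 in 3D FNHCS.

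The lines were compared within condition. Each line gave 1 library per condition, so within a condition line and library cannot be told apart. Plat was lower in SN3595 than in SN3593 in 3 of 3 conditions, by 4.34-fold in 2D FBS, 9.68-fold in 2D FNHCS and 3.73-fold in 3D FNHCS. Mmp14 was higher in SN3595 in 3 of 3 conditions, by 3.46-fold in 2D FBS, 4.93-fold in 2D FNHCS and 2.09-fold in 3D FNHCS. With condition as a term, the log2 fold change of SN3595 against SN3593 was -2.48 ± 0.312 for Plat (adjusted p = 0.103, edgeR), 1.80 ± 0.243 for Mmp14 (adjusted p = 0.119, edgeR) and -1.12 ± 0.363 for Serpine2 (adjusted p = 0.215, edgeR). None of the 8 genes was called by edgeR, where 0.00694% of all genes were. DESeq2 called 3 of the 8, limma-voom called 0, and 3 passed an unadjusted p of 0.05. No gene had all libraries of a line beyond those of the other, which 7.77% of all genes had. Serpine2 was lower in SN3595 in all 3 conditions, by 1.9-fold in 2D FBS, 4.39-fold in 2D FNHCS and 1.23-fold in 3D FNHCS. Plaur and Timp2 differed least between lines, by at most 1.23-fold for Plaur and 1.36-fold for Timp2 in any condition. For Plau, Plaur, Timp1, Timp2 and Timp3 the direction of the difference between lines changed with the condition.

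**Figure D4:**
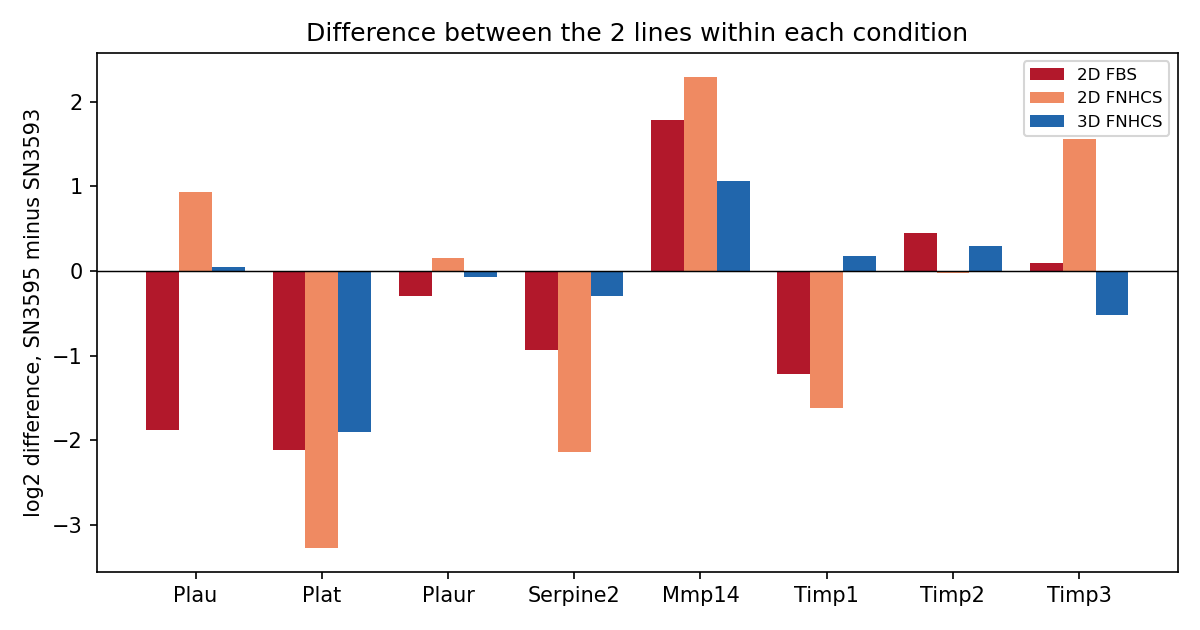
Log2 difference of SN3595 minus SN3593 for the 8 tested genes within 2D FBS (red), 2D FNHCS (orange) and 3D FNHCS (blue), 1 library per line and condition. Plat lies below 0 at -2.12, -3.28 and -1.90, Mmp14 lies above 0 at 1.79, 2.30 and 1.07, and Timp3 is at 1.56 in 2D FNHCS but at 0.10 in 2D FBS and -0.52 in 3D FNHCS.

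Likeness of the genes' profiles across the 6 libraries was measured as the root mean square distance between centred log2 CPM values. It was smallest for Serpine2 with Timp1 (0.818), Plaur with Timp3 (0.827) and Mmp14 with Timp2 (0.834), and largest for Plat with Plaur (3.86). The profile of Timp1 rests on only 12 to 46 expected counts per library. Over the 9561 genes that averaged 10 CPM or more in their highest condition, the genes nearest to Plaur were Agpat9 (distance 0.498), Tmem151a (0.559) and F3 (0.602). Those nearest to Timp2 were Man1c1 (0.233), Shisa4 (0.254) and Prkd1 (0.286). Those nearest to Timp3 were Paqr7 (0.287), 2310007B03Rik (0.367) and Mal (0.369). These distances are over 6 libraries and describe likeness of level across libraries only.

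Of 15 other plasminogen system genes, 8 passed the filter. They split into 2 higher and 1 lower in 2D FNHCS against 3D FNHCS, in 2D FBS against 2D FNHCS 4 higher and 0 lower, and in 2D FBS against 3D FNHCS 4 higher and 1 lower, with median log2 fold changes of 0.76, 0.91 and 0.66. The line as a replicate block gave 4 higher and 1 lower in the first of these. Of all genes tested, 8.63% were higher and 9.77% lower in 2D FNHCS against 3D FNHCS. The shares were 5.85% and 4.77% in 2D FBS against 2D FNHCS, and 19.9% and 20.5% in 2D FBS against 3D FNHCS. The same shares apply to the lists below, and no list was tested against them. Plg, the plasminogen gene, did not pass, at no more than 0.0469 CPM. For 2D FBS against 2D FNHCS, DESeq2 called 1 lower and limma-voom 0, and 1 was lower at an unadjusted p under 0.05.

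S100a10 and Anxa2, whose proteins form a plasminogen-binding pair, were higher in 2D FBS than in 2D FNHCS by 2.08 ± 0.383 (adjusted p = 0.0271) and 1.72 ± 0.381 (adjusted p = 0.0413) on the log2 scale (edgeR). Against 3D FNHCS they were higher in 2D FBS by 3.40 ± 0.405 and 2.19 ± 0.387. Whether the Anxa2 calls held with a library left out is not given here. Plgrkt, a plasminogen receptor gene, was higher in 2D FNHCS than in 3D FNHCS by 1.06 ± 0.207, and Mrc2, a collagen receptor gene also called uPARAP, by 4.05 ± 0.742. Vldlr, a clearance receptor gene, was higher in 2D FBS than in 2D FNHCS by 1.23 ± 0.219. Calls in 2D FNHCS against 3D FNHCS ended for Plgrkt without any of 5 libraries, all but 2D FNHCS of SN3593 (adjusted p = 0.052 to 0.141), and for Mrc2 without 3D FNHCS or 2D FNHCS of SN3595 (0.0502 to 0.0526). Those in 2D FBS against 2D FNHCS ended for S100a10 without 2D FNHCS of SN3593 or either 2D FBS library (0.0684 to 0.123) and for Vldlr without any of the 4 flat libraries (0.0651 to 0.0913, edgeR).

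Of 21 other matrix metalloproteinase genes, 7 passed the filter. Flat culture in FNHCS had 1 higher and 2 lower (2D FNHCS against 3D FNHCS, median log2 fold change 1.16), in 2D FBS against 2D FNHCS 0 were called (-0.22), and in 2D FBS against 3D FNHCS 2 were higher and 2 lower (0.34). For 2D FBS against 2D FNHCS, DESeq2 called 1 lower and limma-voom 0, and 2 were lower at an unadjusted p under 0.05. Mmp11, for stromelysin-3, stood at 348 and 188 CPM in 2D FBS, 406 and 151 CPM in 2D FNHCS, and 29.3 and 32 CPM in 3D FNHCS (SN3595 and SN3593). It was higher in both flat conditions, as Mmp14 was, by 3.18 ± 0.541 in 2D FNHCS against 3D FNHCS (adjusted p = 0.0154) and 3.13 ± 0.54 in 2D FBS against 3D FNHCS (adjusted p = 0.00654, edgeR). Mmp17, another membrane-anchored enzyme gene, fell by 2.28 ± 0.363 in 2D FNHCS and 2.49 ± 0.367 in 2D FBS against 3D FNHCS, and Mmp19 fell by 3.02 ± 0.501 and 4.65 ± 0.567. Leaving out either 3D library ended, in 2D FNHCS against 3D FNHCS, the calls of Mmp11 (adjusted p = 0.0838 to 0.0844), Mmp17 (0.0508 to 0.0736) and Mmp19 (0.0611 to 0.0787, edgeR), and 2D FNHCS of SN3595 also that of Mmp19.

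Of 16 ADAM and ADAMTS genes, 14 passed the filter. Counts of calls were 3 higher and 3 lower in 2D FNHCS against 3D FNHCS (median 0.44), in 2D FBS against 2D FNHCS 0 were higher and 1 lower (-0.31), and in 2D FBS against 3D FNHCS 3 were higher and 3 lower (0.32). Between 2D FBS and 2D FNHCS DESeq2 called 1 higher and limma-voom 0, and 1 was higher at an unadjusted p under 0.05. The replicate block called 1 higher and 2 lower there. Adam19 stood at 0.38 and 0.115 CPM in 2D FBS, 12.6 and 18.5 CPM in 2D FNHCS, and 117 and 80.9 CPM in 3D FNHCS (SN3595 and SN3593). Its log2 fold change was -2.67 ± 0.384 in 2D FNHCS against 3D FNHCS (adjusted p = 0.0103) and -5.93 ± 0.504 in 2D FBS against 2D FNHCS (adjusted p = 0.00707, edgeR). Adam9 was higher in 2D FBS than in 3D FNHCS by 2.32 ± 0.309, and Adamts9, a proteoglycan-cleaving enzyme gene, was at -3.39 ± 0.525 in 2D FNHCS and -5.11 ± 0.592 in 2D FBS against 3D FNHCS. Adam12 was higher in 2D FNHCS than in 3D FNHCS by 1.67 ± 0.283. Calls in 2D FNHCS against 3D FNHCS ended for Adamts9 without 3D FNHCS of SN3595 (adjusted p = 0.0611) and for Adam12 without either 3D library or 2D FNHCS of SN3595 (0.0663 to 0.0844, edgeR). Adamts12 rested on 3 counts in 3D FNHCS, with a count ratio of 13.5 (95% interval 4.34 to 67.8) for 2D FNHCS and 10 (3.14 to 51.3) for 2D FBS, counting error only.

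Of 15 other pericellular inhibitor genes, 10 passed the filter. Calls came to 2 higher and 1 lower in 2D FNHCS against 3D FNHCS (median 0.58), in 2D FBS against 2D FNHCS 1 and 1 (0.14), and in 2D FBS against 3D FNHCS 4 and 1 (1.05). Slpi, an inhibitor of leukocyte elastase, stood at 0.861 and 5.26 CPM in 2D FBS, 63.1 and 34.8 CPM in 2D FNHCS, and 454 and 355 CPM in 3D FNHCS (SN3595 and SN3593). It had log2 fold changes of -3.05 ± 0.759 in 2D FNHCS against 3D FNHCS, -4.01 ± 0.809 in 2D FBS against 2D FNHCS and -7.05 ± 0.924 in 2D FBS against 3D FNHCS. Spint1, which encodes an inhibitor of matriptase, was higher in 2D FNHCS than in 3D FNHCS by 0.88 ± 0.204 and in 2D FBS than in 3D FNHCS by 1.04 ± 0.204. Serpinb6a was higher in 2D FNHCS than in 3D FNHCS by 0.92 ± 0.167 and in 2D FBS than in 2D FNHCS by 0.96 ± 0.167. Among calls in 2D FNHCS against 3D FNHCS, that of Slpi ended without any of the 4 FNHCS libraries (adjusted p = 0.0869 to 0.125), that of Spint1 without any of the 6 (0.0686 to 0.209), and that of Serpinb6a without either 3D library or 2D FNHCS of SN3595 (0.0742 to 0.119, edgeR). For 2D FBS against 2D FNHCS they ended for Slpi without any FNHCS library (0.0557 to 0.0633) and for Serpinb6a without any library but 2D FNHCS of SN3595 (0.0557 to 0.118). The call of Spint1 in 2D FBS against 3D FNHCS ended without 3D FNHCS of SN3593 or 2D FBS of SN3595 (0.0721 to 0.0833, edgeR).

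All 12 membrane-bound and secreted serine protease genes and their partners passed the filter. There were 5 higher and 3 lower in 2D FNHCS against 3D FNHCS (median 0.86), in 2D FBS against 2D FNHCS 3 higher and 0 lower (0.39), and in 2D FBS against 3D FNHCS 6 and 3 (1.18). Lower genes in 2D FBS against 2D FNHCS also numbered 0 by DESeq2, by limma-voom and at an unadjusted p under 0.05, and the replicate block called 5 higher. F3, which encodes tissue factor, the membrane cofactor that starts coagulation, stood at 3363 and 3545 CPM in 2D FBS, 292 and 202 CPM in 2D FNHCS, and 89.9 and 102 CPM in 3D FNHCS (SN3595 and SN3593). It was higher in 2D FNHCS than in 3D FNHCS by 1.36 ± 0.268 (adjusted p = 0.022) and in 2D FBS than in 2D FNHCS by 3.80 ± 0.294 (adjusted p = 0.00613, edgeR). Prss23 was higher in 2D FNHCS than in 3D FNHCS by 3.42 ± 0.469 and in 2D FBS than in 2D FNHCS by 2.30 ± 0.444, and Htra1, a secreted protease gene, by 2.73 ± 0.405 and 1.81 ± 0.389. Hpn, for hepsin, fell by 1.28 ± 0.168 in 2D FNHCS against 3D FNHCS, and Hgfac, for the activator of hepatocyte growth factor, fell by 7.71 ± 0.692. Calls in 2D FNHCS against 3D FNHCS ended for Prss23 without 3D FNHCS of SN3595 (log2 fold change 3.20). Those of F3 and Htra1 in that comparison ended without either 3D library. Those in 2D FBS against 2D FNHCS ended for Prss23 without either 2D FNHCS library or 2D FBS of SN3593 (0.07 to 0.11) and for Htra1 without either 3D or either 2D FBS library (0.0708 to 0.139, edgeR).

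Of 12 genes of plasmin and metalloproteinase substrates and matrix ligands, 6 passed the filter. The flat FNHCS cultures had 1 higher than 3D FNHCS (median 1.82), and in both comparisons of 2D FBS 3 were higher (0.99 against 2D FNHCS and 1.09 against 3D FNHCS), with none lower by edgeR without the line as a term. DESeq2 called 1, 1 and 0 lower in the order of the comparisons, limma-voom 0 in each, and 1, 1 and 0 were lower at an unadjusted p under 0.05. With the replicate block 2 were higher in 2D FNHCS against 3D FNHCS, and in 2D FBS against 2D FNHCS 3 were higher and 1 lower. Fn1, the fibronectin gene, stood at 1428 and 3209 CPM in 2D FBS, 452 and 672 CPM in 2D FNHCS, and 106 and 95.3 CPM in 3D FNHCS (SN3595 and SN3593). It was higher in 2D FNHCS than in 3D FNHCS by 2.48 ± 0.443 and in 2D FBS than in 2D FNHCS by 2.04 ± 0.435. Tnc, for tenascin C, stood at 13.6 and 57.6 CPM in 2D FBS against 0.352 and 1.14 CPM in 2D FNHCS and 0.17 and 0.115 CPM in 3D FNHCS, with 5.58 ± 0.9 in 2D FBS against 2D FNHCS. Thbs1, for thrombospondin 1, was higher in 2D FBS than in 2D FNHCS by 1.59 ± 0.345. Calls ended for Fn1 in 2D FNHCS against 3D FNHCS without either 3D library (adjusted p = 0.0787 to 0.0978), and in 2D FBS against 2D FNHCS without any library but 2D FBS of SN3595 (0.0622 to 0.128). In the same comparison they ended for Tnc without 2D FBS of SN3593 (0.0694) and for Thbs1 without any library but 2D FNHCS of SN3595 (0.0609 to 0.175, edgeR).

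**Figure D5:**
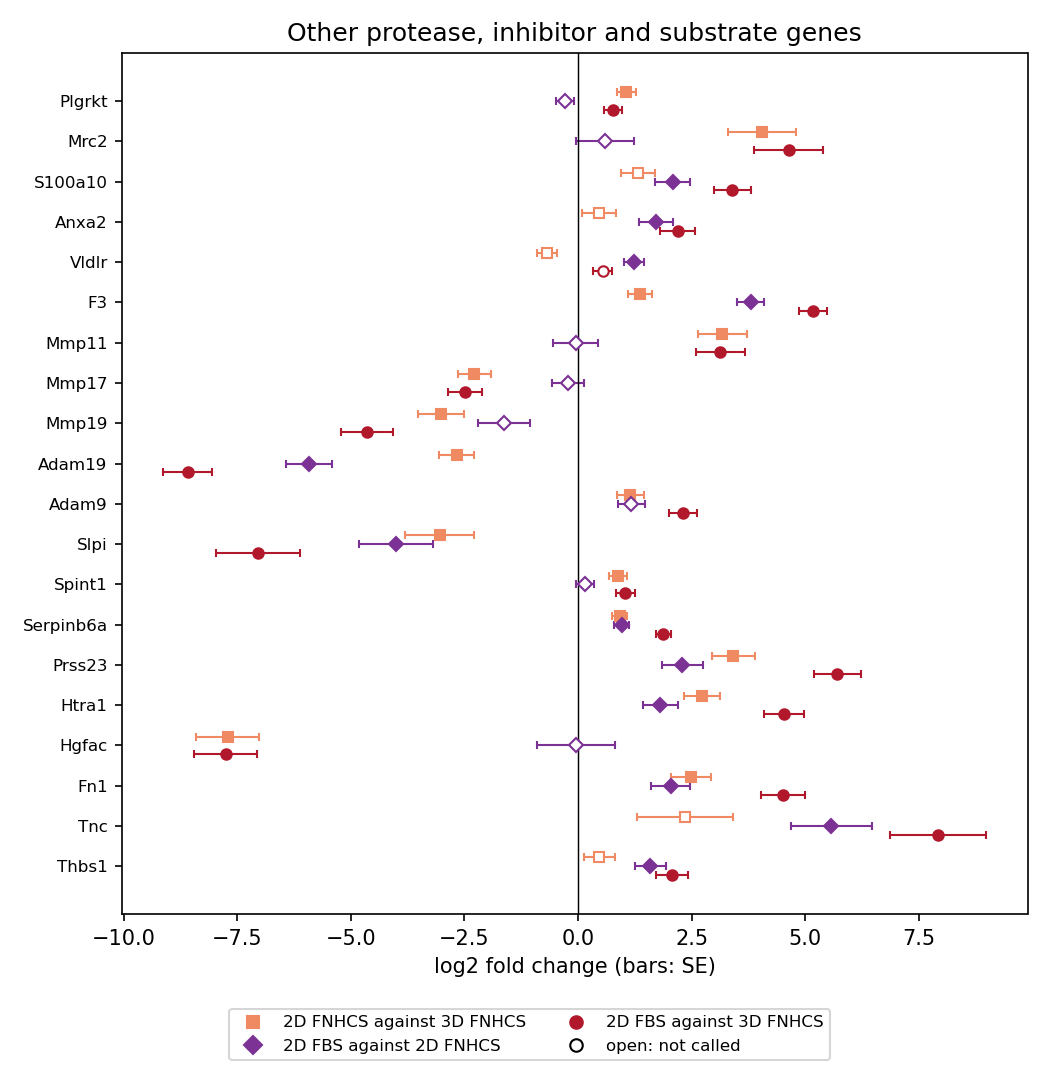
Log2 fold change with SE of 20 genes from the other protease, inhibitor and substrate lists in the 3 comparisons of conditions; filled symbols have an adjusted p below 0.05. F3 lies at 1.36, 3.80 and 5.17 (squares, diamonds and circles), and Adam19 at -2.67, -5.93 and -8.59.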

How the data were processed

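The deposited values are expected counts of reads for each gene, which the authors estimated and which can be fractional. Per the submitters' processing notes they used build mm9 with Bowtie 1.2.3 and RSEM 1.3.1. No annotation is named there, so genes go by symbol, and 25 symbols that had turned into dates are not named. Plgrkt was matched by synonym to the row 5033414D02Rik, and the leukocyte marker Adgre1 to the row Emr1. Expected counts were rounded and tested with edgeR 4.0.16 in R 4.3.3 (TMM, default filter, quasi-likelihood test, Benjamini-Hochberg over 14416 genes at 0.05). All 6 libraries entered 1 fit with a term per condition, leaving 3 residual degrees of freedom. Lines were tested within condition, with a term for each. The SE is the absolute log2 fold change over the square root of F. DESeq2 1.42.0, limma-voom (limma 3.58.1), other scalings, other filters, each library left out and a line block were alternatives. The genes and lists were chosen with earlier results of these data known. Named genes are the 9, plus per other list and comparison the 3 called genes with the lowest adjusted p, and others where 5 or fewer were called; 1 gene that this rule names is not reported here. Same-numbered libraries come from the same cell line, and line differences correlated between conditions (r = 0.422, 0.379 and 0.245 across genes). Libraries of a condition differed by more than sampling noise (chi-square per degree of freedom 142 to 172). A test on simulated counts was run first.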

Additional observations from a re-analysis of the deposited data

Results flagged for a closer look

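Each value here is a log2 difference between conditions in 1 line, from 1 library per condition, and was noted because the lines moved in opposite directions. The difference between lines was not tested. In 2D FNHCS against 3D FNHCS, Timp3 was at 1.35 in SN3595 and -0.74 in SN3593, and Serpine2 at -0.43 in SN3595 and 1.40 in SN3593. In the same comparison Plat was at -1.15 in SN3595 and 0.23 in SN3593, Timp1 at -1.11 and 0.69, and Plaur at 0.01 and -0.21. In 2D FBS against 2D FNHCS, Timp2 was at 0.41 in SN3595 and -0.07 in SN3593. In 2D FBS against 3D FNHCS, Plau was at -1.05 in SN3595 and 0.88 in SN3593, and Timp1 at -1.29 and 0.10.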

How the results depend on the processing

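Plaur and Timp2 kept their calls under every alternative. The filter on low counts was run again for each alternative, so the counts below can include Mmp2. The count of the 9 genes called in 2D FNHCS against 3D FNHCS was 2, but 1 by limma-voom and 1 to 2 with a library left out. For 2D FBS against 2D FNHCS it was 4 with the line as a replicate block (2 higher, 2 lower) and 1 to 3 with a library left out. For 2D FBS against 3D FNHCS it was 6 with the block and 3 to 7 with a library left out. Between lines it was 2 without a filter, 3 by DESeq2 and 0 to 0 with a library left out. Over all genes, the calls in 2D FNHCS against 3D FNHCS numbered 2652, but 4210 by DESeq2, 4181 with the block and 628 to 1805 with a library left out. The flat conditions, 2D FBS against 2D FNHCS, had 1531 calls, but 3147 by DESeq2, 2700 with the block and 91 to 1234 with a library left out. Those in 2D FBS against 3D FNHCS numbered 5836, but 3187 to 5976 with a library left out. Between lines they numbered 1, but 73 without a filter, 748 by DESeq2 and 0 with upper-quartile factors, library size alone, the stricter filter, no condition term or any library left out. Library size scaling moved the median log2 fold change to 0.19 in 2D FNHCS against 3D FNHCS, -0.33 in 2D FBS against 2D FNHCS and -0.14 in 2D FBS against 3D FNHCS.

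Changes of sign all befell genes that were not called, and the cause was not tested. In 2D FNHCS against 3D FNHCS, Plat (0.02) was at -0.04 without a filter, -0.50 by limma-voom, -0.42 with the block and -2.40 to 1.22 with a library left out (-0.66, -2.40, 0 and -0.03 where the sign turned). Plaur was at 0.06 with library size alone and Serpine2 at -0.59 to 1.51 with a library left out. Timp1 was at 0.01 with RLE factors and by DESeq2, 0.18 with library size alone, 0.08 and 0.59 without SN3595 in 3D or 2D FNHCS, and -1.12 to 0.59 over all libraries left out. Timp3 was at -0.54 to 1.07 with a library left out. In 2D FBS against 2D FNHCS, Mmp14 was at -0.65 to 2.10 with a library left out (-0.24 without 2D FNHCS of SN3593), Timp1 at -1.30 to 0.60 (0.05 without 2D FBS of SN3595), and Timp2 at -0.09 with library size alone and -0.03 to 0.42 with a library left out. In 2D FBS against 3D FNHCS, Plau was at -0.14 by limma-voom and -1.09 to 0.87 with a library left out. Between lines, the ranges with a library left out were -0.95 to 0.52 for Plau, -0.18 to 0.07 for Plaur and -0.21 to 0.86 for Timp3 (-0.20 without 2D FNHCS of SN3595).

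With 2 libraries a group and 3 residual degrees of freedom, Plau, Timp1 and Mmp2, at 0 to 70 counts per library, give little room to see a difference.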
